A study of Mus musculus with 6 samples.

Results

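The genes described here are 35 genes of red blood cell formation: the embryonic globins, the enzymes of heme synthesis, iron carriers, erythroid transcription factors, proteins of the red cell membrane and its skeleton, the erythropoietin receptor and further genes enriched in erythroid cells. They were chosen by name, and 34 of them were found among the 19933 genes that the value table names. The remaining one, Ahsp, was not analysed here. Each measured gene was read by a single transcript cluster. The hearts were taken from mouse embryos at E12.5. They comprised 3 wild-type hearts and 3 hearts labelled knockout (KO) for β1 integrin, the shared β chain of most receptors for collagen, laminin and fibronectin. Each sample was hybridised to an Affymetrix Mouse Gene 1.0 ST array. No strain, Cre driver, agent or cell type of the deletion is named in the sources used here. The samples are called biological replicates, without saying how many embryos went into each. The stated purpose was to look for transcript differences before the mutant heart visibly failed.

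Blood fills the heart at this stage, so an RNA sample of a whole heart can hold RNA of circulating red cells. In the mouse embryo the early circulating red cells are primitive erythroid cells, which arise in the yolk sac, keep their nuclei while they mature in the blood and make the embryonic globins. They switch from the βh1 globin of Hbb-bh1 to the εy globin of Hbb-y as they mature, and definitive red cells from the fetal liver, which make adult globins, replace them later. Heme, which every globin chain binds, is built in a chain of enzymatic steps that starts and ends in the mitochondrion. Erythroid cells run its entry step with their own enzyme, encoded by Alas2. The factors GATA1, TAL1, LMO2 and KLF1 switch on much of this programme. In such bulk samples, fewer red cells and less RNA per red cell cannot be told apart.

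Values are deposited log2 signals. A difference is the knockout mean minus the wild-type mean of these, with limma's standard error (SE). The 6 array medians ran from 6.65 to 6.71. Itgb1, the targeted gene, read 11.76, 11.80 and 11.78 in wild-type hearts and 11.53, 11.42 and 11.65 in knockout hearts, so that all knockout hearts were lower, by -0.25 ± 0.09 (adjusted p = 0.797, limma). Where its probes lie relative to the deleted part is not known here. One heart stood apart from the rest. In knockout replicate 1, 449 of 28767 clusters (1.56%) lay more than 1 above the wild-type mean, against 29 in knockout replicate 2 and 119 in knockout replicate 3. It was also the highest of the 6 hearts for 24.4% of clusters. The main differences are therefore given with and without that heart, and the plot of differences shows both for every gene. The cardiac label was borne out in every heart, with the mean of 12 cardiomyocyte markers between 12.23 and 12.32. The defining erythroid markers lay above the array medians in every heart, Alas2 at 8.84 or more and Hbb-bh1 at 8.19 or more. Other genes of the set were dimmer. The wild-type means of Rhag and Gata1, 5.45 and 6.24, lay under those medians.

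No erythroid or heme gene passed the test of knockout against wild type (limma, Benjamini-Hochberg adjusted p from 0.797 to 0.990 over the 34 genes). Among all clusters 0 passed (0%). At an unadjusted p under 0.05, 1 of the 34 was lower and 0 were higher, against 2.87% and 3.06% of all clusters. By the means, 26 of the 34 were higher in the knockout and 8 lower, against 46.5% of all clusters higher. Their median difference was 0.20, against -0.01 for all clusters. This shift rested on knockout replicate 1. The median of the 34 genes lay 0.70 above the wild-type mean in that heart, but 0.10 below it in knockout replicate 2 (-0.10) and 0.05 below it in knockout replicate 3 (-0.05). Without knockout replicate 1, 11 genes were higher and 23 lower, with 47.9% of all clusters higher, and the median difference was -0.07. Of the 34 genes, 0 passed without it, against 0.00348% of all clusters, and the smallest adjusted p was 0.901 (limma). At an unadjusted p under 0.05, 0 were higher and 0 lower, against 2.77% and 2.85% of all clusters.

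Knockout replicate 1 was the highest of the 6 hearts for 29 of the 34 genes, where it was so for 24.4% of clusters, and it lay more than 1 above the wild-type mean for 9 of them. All knockout hearts lay above all wild-type hearts for 2 genes, Cpox and Tfrc, where 6.01% of clusters did so. They lay below for 1, Uros, where 6.61% of clusters did so. Knockout replicates 2 and 3 each fell within the wild-type range for 20 of the 34 genes, against 50.6% and 43.2% of clusters.

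**Figure D1:**
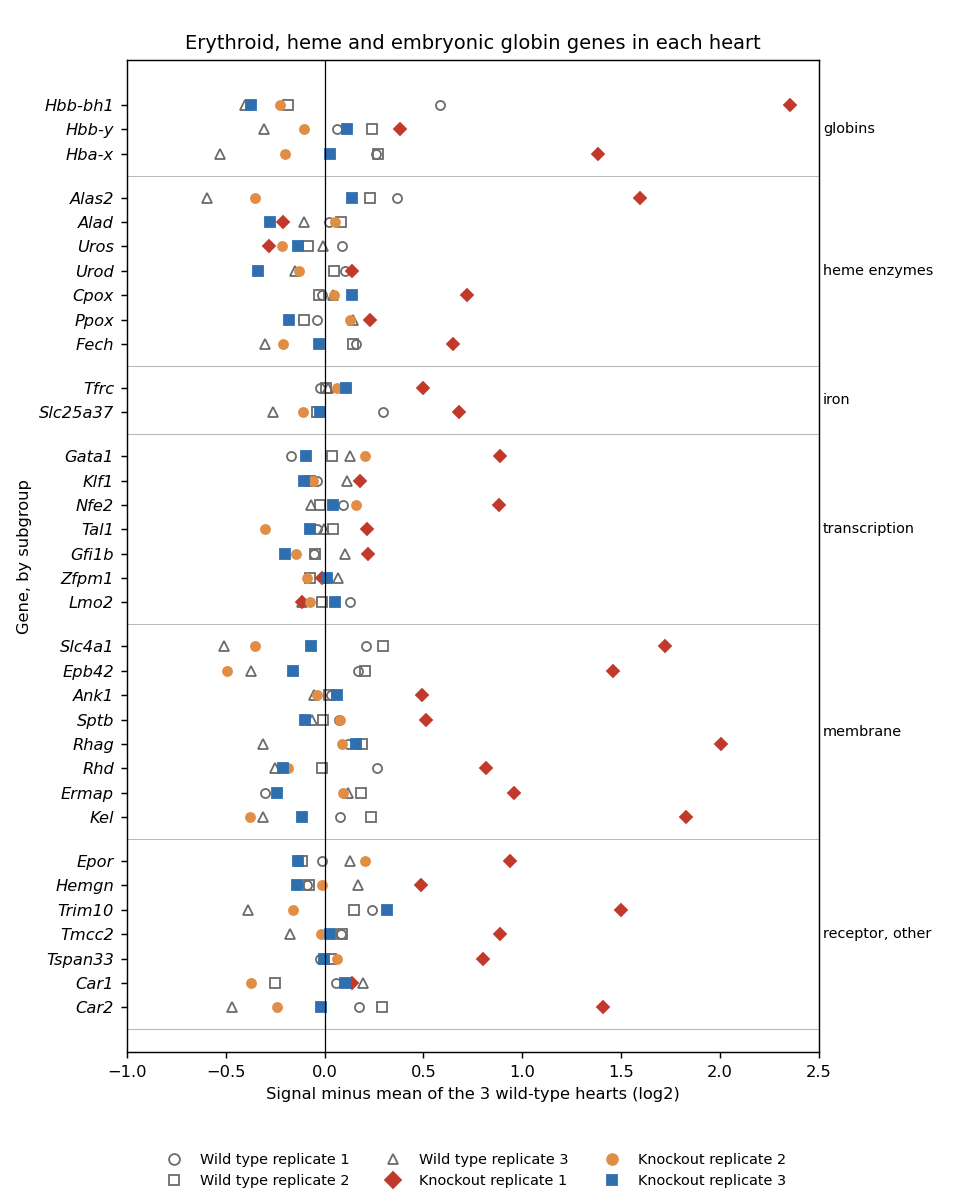
Signal of each of the 34 genes in each heart, as the log2 signal minus the mean of the 3 wild-type hearts, in subgroups by role; open grey marks are wild-type hearts and filled marks knockout hearts. Knockout replicate 1 lies to the right of all other hearts for 29 genes, by more than 1 from the wild-type mean for 9, while knockout replicates 2 and 3 mix with the wild-type hearts.

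Promoter sequence is given as a description of the genes. They were chosen as erythroid genes, so their motif shares say nothing about these hearts. Genes high and genes flat in knockout replicate 1 were not compared for motifs. RefSeq promoter windows of build GRCm38.p6, from 250 bases before to 50 after a transcription start, matched 25 of the 34 genes at 31 starts. Hbb-bh1, Fech, Slc25a37, Nfe2, Lmo2, Slc4a1, Ank1, Car1 and Car2 had no entry. Each was searched on both strands for the GATA motif (AGATAA or AGATAG, and likewise TGATAA or TGATAG), the letters that GATA factors bind, and for a CACCC box (CCNCNCCC), the letters that KLF1 binds. The GATA motif was found at 18 of the 31 starts (58.1%), against 29.8% of all 32851 starts in the table. The CACCC box was found at 21 of the 31 (67.7%), against 49.5% of all starts, and both motifs at 9 (29.0%), against 10.2%. The window printed for each subgroup is that of the gene with the largest knockout minus wild-type difference among those with an entry. Capitals mark every match of either motif on either strand, and overlapping matches run together.
Hba-x, chr11:32276350-32276649, plus strand: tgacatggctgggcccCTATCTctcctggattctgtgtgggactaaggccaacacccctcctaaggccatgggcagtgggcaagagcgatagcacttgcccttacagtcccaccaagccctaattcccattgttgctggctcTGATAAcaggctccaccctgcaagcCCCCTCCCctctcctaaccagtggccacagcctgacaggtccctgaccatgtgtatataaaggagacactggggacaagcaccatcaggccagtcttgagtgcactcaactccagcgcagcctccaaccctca
Alas2, chrX:150547167-150547466, plus strand: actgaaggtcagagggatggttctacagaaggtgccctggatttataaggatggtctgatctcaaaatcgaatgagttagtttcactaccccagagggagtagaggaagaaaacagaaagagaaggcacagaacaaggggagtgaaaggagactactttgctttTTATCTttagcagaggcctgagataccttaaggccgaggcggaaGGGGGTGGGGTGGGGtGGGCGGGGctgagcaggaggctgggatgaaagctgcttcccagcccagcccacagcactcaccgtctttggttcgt
Tfrc, chr16:32608646-32608945, plus strand: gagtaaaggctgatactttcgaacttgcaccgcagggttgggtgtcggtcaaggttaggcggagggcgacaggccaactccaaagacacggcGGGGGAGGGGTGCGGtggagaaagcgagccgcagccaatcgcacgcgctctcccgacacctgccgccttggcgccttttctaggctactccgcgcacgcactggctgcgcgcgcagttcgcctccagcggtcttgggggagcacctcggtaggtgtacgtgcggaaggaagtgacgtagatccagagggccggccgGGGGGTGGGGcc
Gata1, chrX:7967861-7968160, minus strand: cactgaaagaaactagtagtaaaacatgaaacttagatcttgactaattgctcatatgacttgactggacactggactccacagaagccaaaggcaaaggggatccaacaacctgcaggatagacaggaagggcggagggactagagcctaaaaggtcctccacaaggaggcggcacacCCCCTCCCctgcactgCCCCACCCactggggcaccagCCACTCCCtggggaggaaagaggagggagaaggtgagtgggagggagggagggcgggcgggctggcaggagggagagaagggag
Rhag, chr17:40810899-40811198, plus strand: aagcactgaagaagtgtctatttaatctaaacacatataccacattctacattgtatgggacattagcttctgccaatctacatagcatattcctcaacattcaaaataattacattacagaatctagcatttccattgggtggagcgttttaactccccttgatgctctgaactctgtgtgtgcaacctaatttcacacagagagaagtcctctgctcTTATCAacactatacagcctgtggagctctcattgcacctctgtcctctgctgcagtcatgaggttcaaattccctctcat
Trim10, chr17:36869324-36869623, plus strand: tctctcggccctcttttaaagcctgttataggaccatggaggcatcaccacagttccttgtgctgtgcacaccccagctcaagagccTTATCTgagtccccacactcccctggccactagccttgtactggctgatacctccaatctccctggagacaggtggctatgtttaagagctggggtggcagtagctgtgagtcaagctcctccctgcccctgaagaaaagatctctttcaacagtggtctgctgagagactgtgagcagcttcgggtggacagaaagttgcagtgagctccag
The Hba-x window held 2 GATA motifs and 1 CACCC box, and the Alas2 window 1 GATA motif and 4 CACCC matches. The windows of Rhag and Trim10 each held 1 GATA motif and 0 CACCC boxes, whereas those of Gata1 and Tfrc held 3 and 5 CACCC matches and 0 GATA motifs. A match is a run of letters, and binding was not measured.

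The embryonic globins differed in how far knockout replicate 1 rose above the other hearts. Hbb-bh1, the early β-like globin of primitive red cells, read 9.18, 8.41 and 8.19 in wild-type replicates 1 to 3 and 10.95, 8.37 and 8.22 in knockout replicates 1 to 3. Knockout replicate 1 was thus 2.35 (log2) above the wild-type mean, a 5.11-fold excess and the largest of the 34 genes, while the other knockout hearts lay among the wild-type hearts. The difference was 0.59 ± 0.68 (SE) with all hearts and -0.30 ± 0.28 without knockout replicate 1. Hba-x, which encodes the embryonic α-like ζ globin, read 12.14, 12.15 and 11.35 in wild-type hearts against 13.26, 11.68 and 11.91 in knockout hearts. Its excess in knockout replicate 1 was 1.38, and its difference 0.40 ± 0.41, or -0.09 ± 0.25 without that heart. Hbb-y, the later embryonic β-like globin, read 13.78, 13.96 and 13.42 in wild-type hearts against 14.10, 13.61 and 13.84 in knockout hearts. Its excess was 0.38, a 1.30-fold step. Its signal lay near the array maxima of 14.86 to 14.91, which can limit a rise. Whether the globins' RNA differed in its rise was therefore not tested. The globins' groups overlapped, with adjusted p of 0.880 for Hbb-bh1, 0.894 for Hbb-y and 0.865 for Hba-x (limma).

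**Figure D2:**
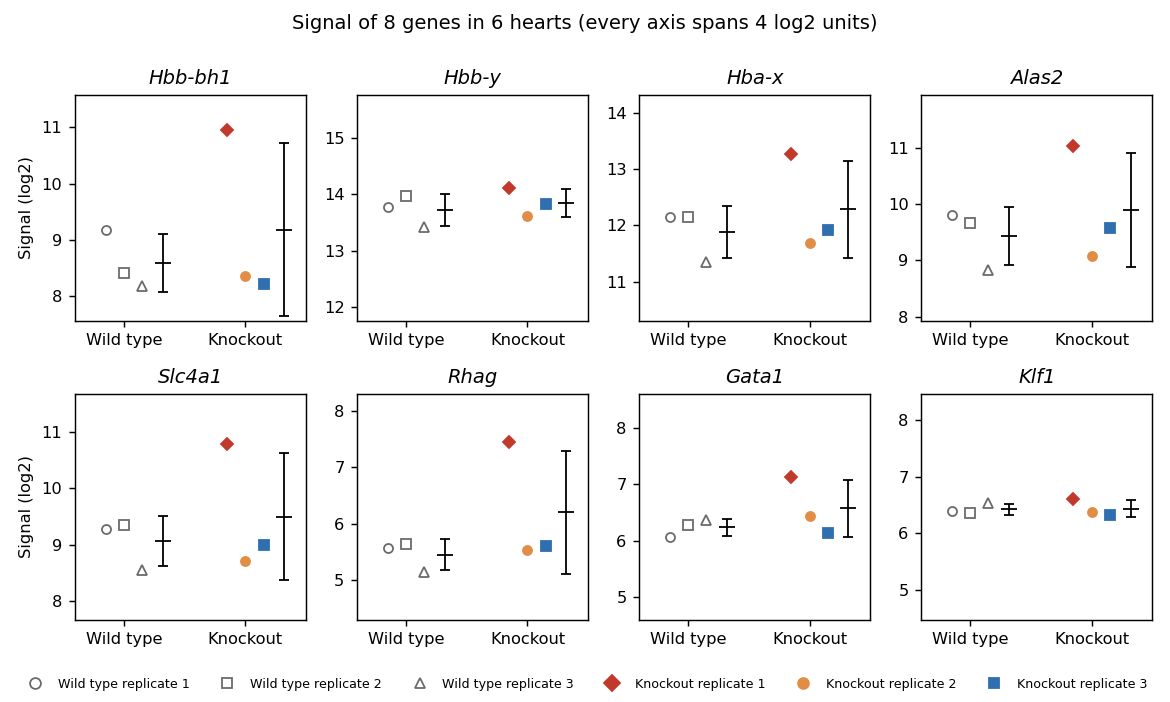
Log2 signal of 8 genes in 3 wild-type and 3 knockout hearts, 1 mark per heart, with the group mean and SD as a bar beside each group; every axis spans 4 log2 units. Hbb-bh1, Hba-x, Alas2, Slc4a1 and Rhag stand more than 1 above all other hearts in knockout replicate 1, Gata1 by 0.68, and Hbb-y and Klf1 by 0.14 and 0.07.

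The enzymes of heme synthesis did not move as a block. Alas2, the erythroid enzyme of the entry step, read 9.80, 9.66 and 8.84 in wild-type hearts against 11.03, 9.08 and 9.57 in knockout hearts, 3.02-fold above the wild-type mean in knockout replicate 1. Its difference was 0.46 ± 0.48 (SE) with all hearts and -0.11 ± 0.30 without that one. Fech, which inserts iron in the last step, was 0.65 above the wild-type mean in knockout replicate 1 and 0.21 and 0.03 below it in the other knockout hearts (-0.21 and -0.03). Cpox, coproporphyrinogen oxidase, read 8.27, 8.26 and 8.33 in wild-type hearts against 9.01, 8.33 and 8.43 in knockout hearts. Its groups did not overlap, but knockout replicate 2 cleared the wild-type hearts by less than 0.01, and its difference of 0.30 ± 0.17 was 0.09 ± 0.08 without knockout replicate 1 (adjusted p = 0.797 and 0.930, limma). Alad, which makes porphobilinogen, differed by -0.14 ± 0.11, Urod, uroporphyrinogen decarboxylase, by -0.11 ± 0.14 and Ppox, protoporphyrinogen oxidase, by 0.06 ± 0.13. In knockout replicate 1 they stood at -0.21, 0.14 and 0.23 against the wild-type mean. Of the 7 enzymes, 5 were highest in that heart, where 24.4% of clusters were.

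Uros, which encodes uroporphyrinogen III synthase, was the gene with the lowest p of the 34. It read 7.72, 7.54 and 7.62 in wild-type hearts against 7.35, 7.41 and 7.49 in knockout hearts, so that every knockout heart was below every wild-type heart. The difference was -0.21 ± 0.09 (SE), a knockout level of 0.865 of wild type, with an unadjusted p of 0.0470 and an adjusted p of 0.797 (limma). Without knockout replicate 1 it was -0.17 ± 0.09. It stayed between -0.25 and -0.17 in the 14 alternative fits, with adjusted p of 0.337 or more.

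Both iron carriers were highest in knockout replicate 1. Tfrc, the transferrin receptor that brings iron into the cell, read 9.96, 9.99 and 10 in wild-type hearts against 10.48, 10.05 and 10.09 in knockout hearts. Its groups did not overlap, and the difference was 0.22 ± 0.13 (SE) with all hearts and 0.09 ± 0.08 without knockout replicate 1 (adjusted p = 0.797 and 0.931, limma). Slc25a37, mitoferrin, which carries iron into the mitochondrion, was 0.68 above the wild-type mean in that heart, with a difference of 0.18 ± 0.23 or, without it, -0.07 ± 0.16.

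Among the transcription factors, Gata1 and Nfe2 had the largest excesses in knockout replicate 1. Gata1 read 6.07, 6.28 and 6.37 in wild-type hearts against 7.13, 6.45 and 6.15 in knockout hearts, and Nfe2, the large subunit of NF-E2, read 5.89, 5.77 and 5.72 against 6.68, 5.95 and 5.83. Both were about 1.85-fold above the wild-type mean in knockout replicate 1. Their differences of 0.33 ± 0.23 and 0.36 ± 0.21 (SE) were 0.06 ± 0.13 and 0.10 ± 0.09 without it. The other factors had smaller group differences. Klf1, the activator of adult β globin, differed by 0.01 ± 0.11, Tal1 by -0.05 ± 0.13, Gfi1b by -0.04 ± 0.13, the GATA1 cofactor gene Zfpm1 by -0.03 ± 0.08 and Lmo2 by -0.04 ± 0.10. The Klf1 signal lay under the array median in every heart, so a change might not show. In knockout replicate 1, Klf1, Tal1 and Gfi1b were 0.18, 0.22 and 0.22 above the wild-type mean, with knockout SDs of 0.15, 0.26 and 0.23, while Zfpm1 lay at -0.01 and Lmo2 at -0.12. The median difference of the 7 factors was -0.03 (0.0022 with cyclic loess), and their mean difference 0.08. Gata1, Nfe2, Gfi1b and Zfpm1 are also active in megakaryocytes, and Tal1 and Lmo2 in endothelial cells.

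Of the 8 membrane genes, 4 were among the 9 genes more than 1 above the wild-type mean in knockout replicate 1. All 8 were highest in knockout replicate 1, and the mean of the 8 was 7.22, 7.28 and 6.93 in the wild-type hearts and, in the knockout hearts, 8.37, 7.0 and 7.06. Rhag, the Rh-associated glycoprotein, read 5.57, 5.64 and 5.14 in wild-type hearts against 7.46, 5.54 and 5.61 in knockout hearts, a 4.01-fold excess in knockout replicate 1. Its difference of 0.75 ± 0.47 (SE; adjusted p = 0.80, limma) was the largest of the 34 genes and was 0.12 ± 0.16 without that heart. Kel, the Kell blood group protein, was 3.55-fold above the wild-type mean in knockout replicate 1, and Slc4a1, the band 3 anion exchanger, 3.30-fold. Slc4a1 read 9.28, 9.36 and 8.56 in wild-type hearts against 10.79, 8.71 and 9.0 in knockout hearts. Epb42, protein 4.2, which ties band 3 to the skeleton, was 2.75-fold above. Without knockout replicate 1, Kel stood at -0.25 ± 0.17, Slc4a1 at -0.21 ± 0.25 and Epb42 at -0.33 ± 0.20. The skeleton genes Ank1 (ankyrin) and Sptb (β-spectrin) had smaller excesses of 0.49 and 0.51, and the blood group genes Rhd and Ermap stood at 0.82 and 0.96. These 4 differed by 0.14 to 0.27 with all hearts and by -0.20 to 0.01 without knockout replicate 1.

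The receptor and the other enriched genes, except Car1, showed the same heart as the highest. Epor, the erythropoietin receptor, read 6.73, 6.63 and 6.88 in wild-type hearts against 7.68, 6.95 and 6.61 in knockout hearts, a difference of 0.34 ± 0.25 (SE) or, without knockout replicate 1, 0.03 ± 0.13. Trim10, a RING finger protein of maturing red cells, was 1.5 above the wild-type mean in knockout replicate 1, with a difference of 0.55 ± 0.39 or 0.08 ± 0.22. Car2, carbonic anhydrase 2, was 1.41 above it, with 0.38 ± 0.42 or -0.13 ± 0.23. Tmcc2, Tspan33 and the nuclear protein gene Hemgn were 0.89, 0.80 and 0.49 above. Car1, the carbonic anhydrase typical of definitive red cells, read 5.38, 5.07 and 5.51 in wild-type hearts against 5.46, 4.94 and 5.42 in knockout hearts, with no heart set apart and a difference of -0.04 ± 0.17. Its signal lay under the array median in every heart, so a change might not show, and the share of definitive cells was not tested.

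**Figure D3:**
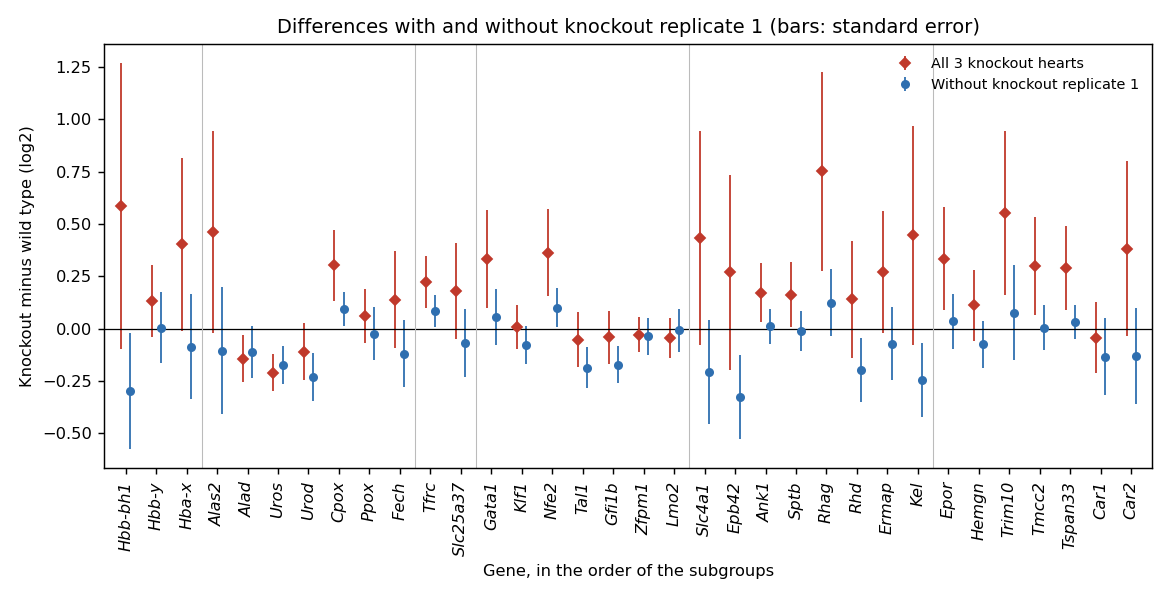
Knockout minus wild-type difference of each of the 34 genes on the log2 scale, with limma's standard error as bars, for all 3 knockout hearts (diamonds) and without knockout replicate 1 (circles); grey lines part the subgroups. The differences run from -0.21 to 0.75 with all hearts and from -0.33 to 0.12 without that heart.

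The 9 genes more than 1 above the wild-type mean in knockout replicate 1, a set taken after the values were seen, also varied among the other hearts. They were Hbb-bh1, Hba-x, Alas2, Slc4a1, Epb42, Rhag, Kel, Trim10 and Car2. Wild-type replicate 3 was the lowest wild-type heart for 9 of these 9, where it was so for 20 of the 34 genes and for 34.6% of all clusters, and their median gap between wild-type replicates 1 and 3 was 0.64. For 8 of the 9, knockout replicate 2 was below knockout replicate 3. It was so for 7 of the 15 genes with an excess of 0.3 to 1 and 5 of the 10 with less. The share over all clusters was not counted. The 10 genes with an excess of 0.3 or less in knockout replicate 1 had a median gap of -0.05 between wild-type replicates 1 and 3. All 10 were lower in the knockout without knockout replicate 1, by 0.01 to 0.23 (-0.01 to -0.23). In that fit 23 of the 34 genes were lower, with 47.9% of all clusters higher. The 10 were picked by a difference from the same wild-type mean, so their count is no separate result. Over all 34 genes the median SD was 0.15 among wild-type hearts and 0.44 among knockout hearts, against 0.10 and 0.14 over all clusters.

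Other genes of the pathway were taken from a list of 77, of which 65 were measured. Of these 0 passed the test, and at an unadjusted p under 0.05 2 were higher (3.08%, against 3.06% of all clusters) and 0 lower. All knockout hearts lay above all wild-type hearts for 4 of the 65 (6.15%, against 6.01% of all clusters). By the means, 44 were higher and 21 lower in the knockout, with a median difference of 0.07, and without knockout replicate 1 26 were higher and 39 lower (-0.02). The adult globins were read only by clusters that carry several gene symbols and were not used. The 6 genes with the lowest p were Cd47, Bcl11a, Hmox1, Jak2, Slc2a1 and Bnip3l. Hmox1, heme oxygenase 1, which breaks heme down, read 8.45, 8.38 and 8.12 in wild-type hearts against 10.38, 8.64 and 8.75 in knockout hearts, with no overlap. It differed by 0.94 ± 0.42 (SE), or 0.38 without knockout replicate 1 (adjusted p = 0.797 with all hearts, limma). Bcl11a, the repressor of embryonic globins in definitive cells, read 8.20, 8.24 and 8.06 against 8.84, 8.39 and 8.41, a difference of 0.38 ± 0.13 or 0.23. Cd47, the marker of self on red cells, differed by 0.41 ± 0.14 and the glucose transporter gene Slc2a1 by 0.51 ± 0.24, both with no overlap, Jak2, the kinase of the erythropoietin receptor, by 0.23 ± 0.11 and the mitophagy receptor gene Bnip3l by 0.30 ± 0.15. Alas1, the entry enzyme of heme synthesis in other cells, was named after its values were seen. It went the other way from Alas2 in knockout replicate 1, at 9.22 there, 9.82 and 9.78 in the other knockout hearts and 10.08, 9.98 and 9.74 in wild-type hearts.

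Genes outside the red cell lineage were also high in knockout replicate 1. All 14 measured megakaryocyte and platelet markers were highest in that heart, and their wild-type mean levels of 6.86, 6.85 and 6.97 faced 8.44, 7.03 and 6.95 in the knockout. Ppbp, Thbs1 and Rab27b had the lowest p of that list, with 1.22 ± 0.66, 1.08 ± 0.41 and 0.35 ± 0.21 (SE). Without knockout replicate 1 they differed by 0.34, 0.80 and 0.08. Thbs1 also varied among wild-type hearts, at 9.76, 9.56 and 10.93. All 16 genes of the low oxygen response were also highest there. Their wild-type mean levels of 8.55, 8.51 and 8.53 faced 10.23, 8.90 and 8.74 in the knockout, and Egln3, P4ha1 and Slc2a3 had the lowest p. Wild-type replicate 3 was the lowest wild-type heart for 2 of the 14 megakaryocyte genes and 7 of the 16 low oxygen genes. It was so for 20 of the 34 erythroid and heme genes and for 34.6% of all clusters. The part of these lists in the erythroid values was not tested.

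Knockout replicate 1 was not the highest heart for any of the lists of further cell types. The genes said to lead a list are those with its lowest p, in either direction. The mean of 20 macrophage and leukocyte markers was 6.54 to 6.64 in wild-type hearts against 6.79, 6.89 and 6.79 in knockout hearts, led by Cybb, Mpeg1 and Laptm5. That of 11 liver markers was 5.71 to 5.91 and 5.99, 6.17 and 6.26, led by Ahsg, Alb and Afp. Knockout replicate 1 was the lowest knockout heart for this list, but lay above all wild-type hearts. The source of the erythroid RNA was not tested. That of 11 blood stem and progenitor markers was 7.10 to 7.26 and 7.31, 7.26 and 7.43, led by Runx1, Sox17 and Kit. That of 12 endothelial markers was 9.73 to 9.84 and 9.65, 9.69 and 9.66, led by Plvap, Tek and Npr3. The cardiomyocyte markers, led by Nkx2-5, Nppa and Tnni1, were 12.29 to 12.32 and 12.23, 12.31 and 12.28. Nkx2-5 and Tnni1 were lower in the knockout (-0.174 and -0.145) and Nppa higher (0.163). In all of these lists 0 genes passed the test over all clusters (limma). At an unadjusted p under 0.05, where 3.06% of all clusters were higher, 5 of 20 macrophage, 4 of 11 liver, 2 of 11 progenitor, 5 of 16 low oxygen, 1 of 14 megakaryocyte, 0 of 12 endothelial and 0 of 12 cardiomyocyte genes were. On the lower side, with 2.87% of all clusters, were 1 of 20 macrophage and 1 of 12 endothelial genes and 0 of the other lists.

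**Figure D4:**
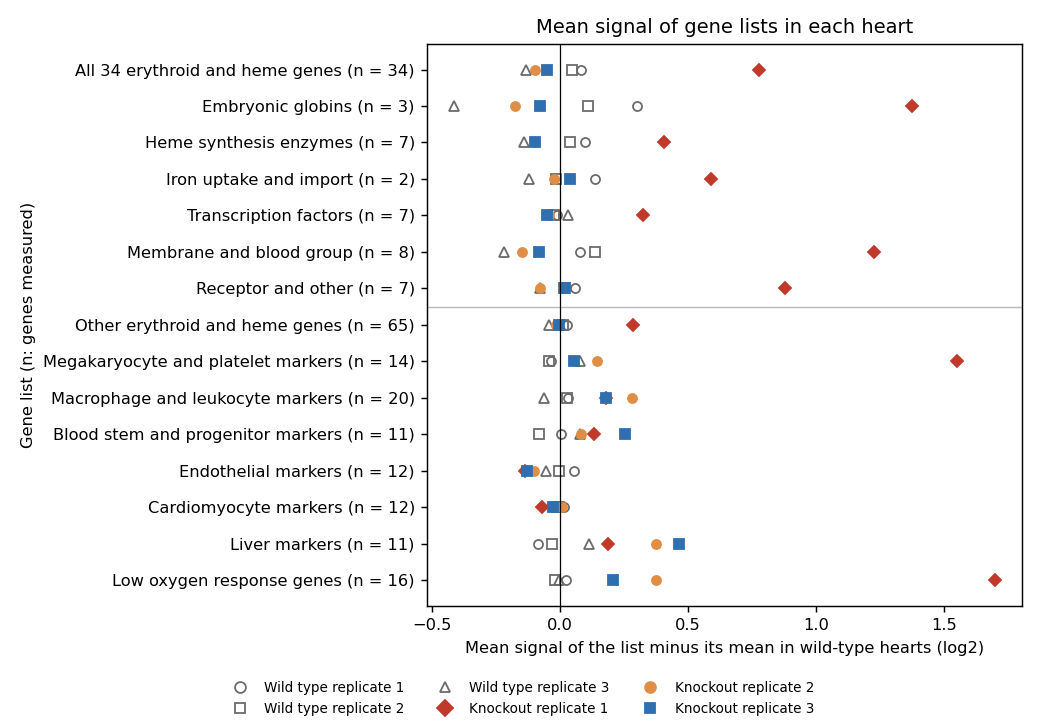
Mean log2 signal of each gene list in each heart, minus the list's mean over the 3 wild-type hearts; the grey line parts the erythroid and heme genes with their subgroups (above) from the other lists (below). Knockout replicate 1 stands to the right of all other hearts for the erythroid, megakaryocyte and low oxygen lists. It does not for the macrophage, progenitor, endothelial, cardiomyocyte or liver lists.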

How the data were processed

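The authors deposited 1 log2 signal per transcript cluster and array, made with RMA (robust multi-array average) per the submitters' processing notes. The RMA version and the genome build are not stated. Total RNA came from a Trizol extraction and carried a biotin label, per the labels' protocols. RMA compresses differences of dim clusters, and the number of arrays limits the precision.

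Clusters were named from a platform annotation with 1 symbol (21776 of 28767 clusters), updated by Entrez identifier (21686 matched). Several symbols (1618) or none (5373) were tested, not named. The groups were compared with limma 3.58.1 in R 4.3.3 (lmFit and eBayes, no covariate, two-sided), Benjamini-Hochberg adjusted over all clusters, threshold 0.05. The fit was tested on simulated data. The members and lists were chosen with earlier results of these data known. Named are all measured members, 6 other pathway genes and 3 genes of every other list by lowest p, and the 10 genes most like the members' mean. Over all clusters, the deviations of same-numbered samples from their group means correlated at -0.04, -0.03 and -0.06. The main fit used no pairing, and a pairing that touches few genes was not tested.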

Additional observations from a re-analysis of the deposited data

How the results depend on the processing

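Without knockout replicate 1 the erythroid excess was lost. The median difference was then -0.07, and 0 of the 34 genes passed, so a reversal was not shown. Over the fits that each left out 1 heart, 11 to 30 of the 34 genes were higher in the knockout and 4 to 23 lower, with the extremes of 11 and 23 without knockout replicate 1 and of 30 and 4 without knockout replicate 2. The genes with all knockout hearts above all wild-type hearts numbered 2 to 7, where 9.09% to 13.71% of all clusters did so, and the 7 (20.6%) without knockout replicate 3 stood beside 13.71%. Of all clusters 0 to 1 passed. Array weights, which gave knockout replicate 1 a weight of 0.35 against 2.98 for knockout replicate 2, left 13 genes higher and 21 lower, a median difference of -0.05 in place of 0.20 and of -0.16 for the heme enzymes. Without knockout replicate 2 the median of the 34 genes was 0.32, without knockout replicate 3 0.30, and without wild-type replicate 3 0.14, where the globins' median of 0.40 also fell to 0.14. The sign of a gene's difference was kept in all alternatives run (14, fewer for dim genes) for 11 genes and turned without knockout replicate 1 for 15. With the replicate number as a block, 26 genes were higher and 0 clusters passed, as without it. A dim filter, 1 cluster per gene, quantile normalization, cyclic loess, centring and a trended variance kept the count of higher genes between 19 and 27, the 19 with the dim filter, which left out 8 of the 34 genes. Another choice of cluster was not run, since every gene had a single one. Without scanner files, signal over background is unknown.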

Other observations

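Outside the erythroid and heme genes, 496 genes ranged over at least 1 (log2) between the 6 hearts. The 10 whose values ran closest to the mean of the 34 erythroid and heme genes, by Pearson's r over the 6 hearts as a measure of likeness, were Ciart, Ppp1r15a, Slc37a4, Bmp10, Abhd18, Ube2o, Fermt3, Zfp395, Ctla2a and Hsd3b6. Each was highest in knockout replicate 1. The choice used all 6 hearts, and the mean of the 34 genes peaks in that heart. This and the further likenesses of the 10 genes are therefore no separate result. Over the 5 hearts without knockout replicate 1, r ran from 0.530 for Zfp395 and 0.584 for Fermt3 to 0.967 for Hsd3b6 and 0.987 for Ciart. These values describe hearts that share 1 normalization. Hsd3b6, a steroid dehydrogenase gene, read 9.22, 9.38 and 8.29 in the wild-type hearts against 10.98, 8.42 and 8.68 in the knockout hearts, so that wild-type replicate 3 was its lowest heart as for the embryonic globins. Bmp10, a growth factor of the trabecular heart muscle, read 9.95, 9.93 and 9.70 in wild-type hearts against 10.83, 9.85 and 9.73 in knockout hearts. Ube2o, a ubiquitin enzyme of maturing red cells, lay 0.84 above the wild-type mean in knockout replicate 1, and Fermt3, the kindlin of blood cells, 1.26 above it. Ciart, a clock-related repressor gene, was 1.70 above it and lay between 6.30 and 6.56 in the other hearts.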
